A study of Arabidopsis thaliana with 12 samples.

Results

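The genes described here are the 10 Arabidopsis genes that make the glycolipids of plastid membranes and desaturate their fatty acids: MGD1, MGD2, MGD3, DGD1, DGD2, SQD1, SQD2, FAD6, FAD7 and FAD8. They were chosen by name, through their locus codes, with earlier results of these data known, and all 10 of 10 were found among the 38093 genes of the deposited tables. Seedlings of gun1-1, gun4-1 and gun5-1 were set against wild-type Col-0, with 3 libraries for each of the 4 genotypes and 12 libraries in all. The mutants are all in the Col-0 background. All 4 genotypes, Col-0 included, were raised for 5 days in light of 100 µE on medium with 5 µM norflurazon, a herbicide that blocks phytoene desaturase, so that plastids lose their carotenoids and bleach in light. Each comparison is therefore of a mutant with Col-0 under the herbicide, and seedlings without norflurazon were not analysed here. The protocol text also mentions piperonylic acid given with norflurazon to gun5-1, but the labels of the 3 gun5-1 libraries name norflurazon alone. Each mutant is 1 allele: gun1-1 affects GUN1, a plastid pentatricopeptide repeat protein, gun5-1 affects the H subunit of magnesium chelatase, and gun4-1 affects GUN4, which activates that enzyme.

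Thylakoids are built mainly of galactolipids, with a sulfolipid as a further glycolipid. MGD enzymes move galactose from a nucleotide sugar onto diacylglycerol to make monogalactosyldiacylglycerol, and DGD enzymes add another galactose to that product. MGD1 and DGD1 are known for the bulk of this synthesis in green tissue, whereas MGD2, MGD3 and DGD2 form a side route known for its part under phosphate shortage. SQD1 makes the sulfur-bearing sugar nucleotide and SQD2 transfers its head group onto diacylglycerol. FAD6 places a further double bond in the acyl chains of plastid lipids, and FAD7 and FAD8 place the last one, which gives the trienoic fatty acids typical of thylakoids.

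Transcript levels are the authors' group FPKM values (fragments relative to transcript length and to all mapped fragments), with 1 value for the 3 libraries of a genotype. The spread between libraries and the sequencing depth are therefore unknown. Each gene is followed through whichever of its transcripts had the largest average FPKM, and it is called higher or lower where the authors' Cuffdiff test has a q-value under 0.05. Standard errors (SE) were derived from the deposited fold changes, statistics and p-values. The smallest q that the gun1-1, gun4-1 and gun5-1 tables list is 0.000376, 0.00103 and 0.00042, and it is called the floor here. The mutated genes do not check the alleles by their level. GUN1 had 137 FPKM in gun1-1, 204 in gun4-1 and 235 in gun5-1, against 149, 160 and 147 in Col-0 of the same tables. GUN4 had 6.09 FPKM in gun1-1, 3.67 in gun4-1 and 3.86 in gun5-1, against 2.06, 2.21 and 2.03 in Col-0. Cuffdiff did not call GUN4 in gun1-1, gun4-1 or gun5-1 (q = 0.126, 0.611 and 0.409), and the SE of its log2 fold change was 1.26, 1.19 and 1.25. GUN5 had 647 FPKM in gun1-1, 333 in gun4-1 and 683 in gun5-1, against 192, 207 and 189 in Col-0. The samples are labelled as whole seedlings, although the design text speaks of leaf RNA; transcripts of 5 of 5 root hair genes and of 5 of 5 shoot epidermis and guard cell genes were detected and tested in every table. The summed root hair markers had 51.2 FPKM in gun1-1, 55.5 in gun4-1 and 47.9 in gun5-1, against 69.2 to 75.5 in Col-0, with 4, 3 and 3 of 5 called lower. The summed shoot markers had 104 FPKM in gun1-1, 383 in gun4-1 and 176 in gun5-1, against 236 to 257 in Col-0, with 0, 2 and 1 called higher and 2, 0 and 1 called lower. Most of that sum was PDF1, which had 54.7 FPKM in gun1-1, 312 in gun4-1 and 123 in gun5-1, against 188, 202 and 185 in Col-0. The median log2 fold change of the 5 shoot markers was 0.05 in gun1-1, 0.47 in gun4-1 and -0.01 in gun5-1. Of all tested genes, 18.7%, 8.21% and 16.4% were called higher and 15%, 5.92% and 13.1% lower in gun1-1, gun4-1 and gun5-1. The part of these marker values in the results below was not tested, and in bulk RNA fewer cells of a type and less RNA per cell cannot be told apart.

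Glycolipid and desaturase genes were called higher in each mutant, with the most calls in gun5-1 and the fewest in gun4-1. By the authors' deposited table, 7 of 8 tested members were called higher in gun5-1, where 16.4% of all tested genes were called higher and 29.5% in either direction. In gun1-1 the authors' deposited table gave 6 of 8 tested members called higher, beside 18.7% of all tested genes called higher and 33.7% in either direction. In gun4-1 it was 4 of 9 tested members by the authors' deposited table, beside 8.21% of all tested genes called higher and 14.1% in either direction. No member was called lower in any of the 3 tables by Cuffdiff, and 0 passed an unadjusted 0.05 in that direction, beside 15% of all tested genes called lower in gun1-1, 5.92% in gun4-1 and 13.1% in gun5-1. The median log2 fold change of the tested members was 0.56 in gun1-1, 0.35 in gun4-1 and 0.89 in gun5-1, against -0.02, -0.003 and -0.02 over all tested genes. The 3 tables share the Col-0 libraries, so these counts are not independent of each other. Among the tested members, changes of at least 2-fold were limited to FAD8 in gun1-1 and to FAD6, FAD7 and FAD8 in gun5-1, with none in gun4-1.

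The calls rest on the authors' p-values, which are smaller than a normal reading of their own statistics: the normal quantile of p was a median 1.74 times the statistic in each table. Read from the statistic alone, with adjustment over all genes, 4 members were called in gun1-1, 0 in gun4-1 and 6 in gun5-1, all higher. Over all tested genes that reading called 15.2% in gun1-1, 3.13% in gun4-1 and 13% in gun5-1, in either direction. In gun4-1, 4 members passed an unadjusted 0.05 that way, which is a looser threshold than q. The share of all genes passing it was not computed.

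**Figure D1:**
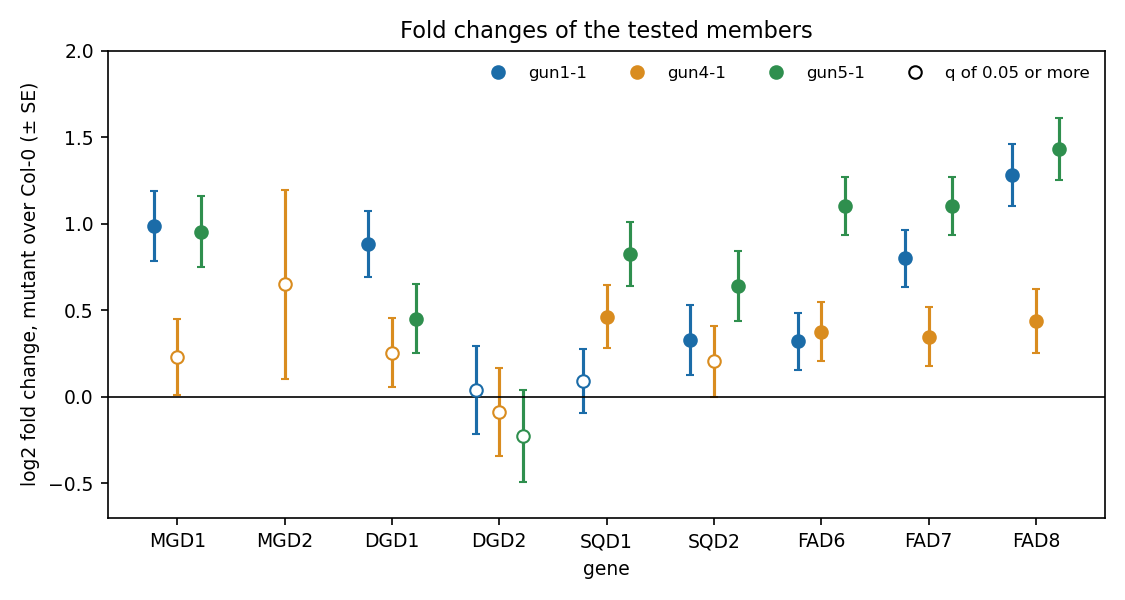
Deposited log2 fold change of mutant over Col-0 (y axis) with the derived SE as bars, for the members tested in at least 1 table (x axis); filled points have q under 0.05 and open points do not. FAD8 holds the highest value in gun1-1 (1.28) and gun5-1 (1.43), while DGD2 lies between -0.23 and 0.04.

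**Figure D2:**
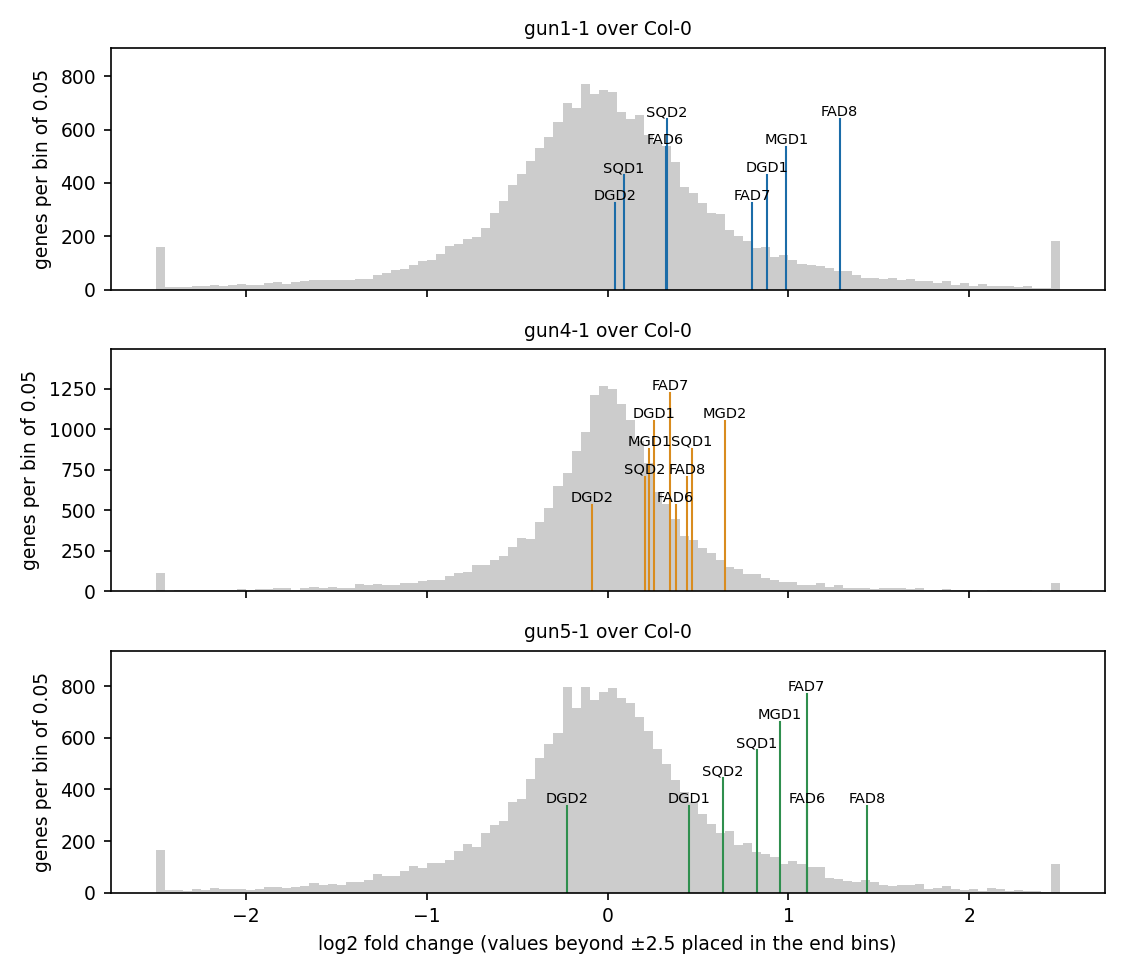
Histograms of the deposited log2 fold changes of all tested genes in gun1-1, gun4-1 and gun5-1 over Col-0 (x axis, log2; y axis, genes per bin), with the tested members marked by lines of arbitrary height. In gun5-1 all but DGD2 (-0.23) lie to the right of 0, FAD8 (1.43) farthest out.

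Among the galactolipid synthases, MGD1 and DGD1 were called higher in gun1-1 and gun5-1, and the side-route genes were not called. Positions are those of RefSeq on TAIR10.1. MGD1 (AT4G31780, chromosome 4, 15373988 to 15377172) had 57.6 FPKM in gun1-1, against 29.1 in Col-0. It had 36.6 FPKM in gun4-1, against 31.2 in Col-0, and 55.4 in gun5-1, against 28.6 in Col-0. MGD1 transcripts thus stood at 1.98 times the Col-0 level in gun1-1, 1.17 times in gun4-1 and 1.94 times in gun5-1. The authors' deposited table gives log2 fold changes of 0.99 (SE 0.20) in gun1-1 and 0.95 (SE 0.20) in gun5-1, both at the floor of q. In gun4-1 the authors' deposited table gives 0.23 (SE 0.22) with q = 0.289, which is not a call. The main of its 5 annotated transcripts held 96.3% of the gene's FPKM in gun1-1, 93.1% in gun4-1 and 94.9% in gun5-1, and 94.6% in Col-0. MGD1 overlaps the gene AT4G31790 by 15 bases, and that neighbour was not called in any table.

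DGD1 (AT3G11670, chromosome 3, 3680866 to 3684871) had 20.5 FPKM in gun1-1, against 11.1 in Col-0. It had 14.3 FPKM in gun4-1, against 12.0 in Col-0, and 14.98 in gun5-1, against 11.0 in Col-0. DGD1 was thus at 1.84 times the Col-0 level in gun1-1, 1.19 times in gun4-1 and 1.37 times in gun5-1. By the authors' deposited table the log2 fold change of DGD1 was 0.88 (SE 0.19) in gun1-1 and 0.45 (SE 0.20) in gun5-1, both at the floor of q, while gun4-1 gave 0.25 (SE 0.20) with q = 0.154. The gun5-1 call of DGD1 was lost when p was read from the statistic.

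DGD2 (AT4G00550, chromosome 4, 237901 to 240579) had 8.89 FPKM in gun1-1, against 8.65 in Col-0. It had 8.75 FPKM in gun4-1, against 9.29 in Col-0, and 7.27 in gun5-1, against 8.51 in Col-0. This second galactosyltransferase did not pass in any mutant. The authors' deposited table gives 0.04 (SE 0.25), -0.09 (SE 0.25) and -0.23 (SE 0.27) in gun1-1, gun4-1 and gun5-1, with q = 0.872, 0.803 and 0.321. The 95% interval of its log2 fold change ran up to 0.53 in gun1-1, 0.41 in gun4-1 and 0.30 in gun5-1, so in gun1-1 and gun5-1 the log2 fold change of MGD1 lies above it, while smaller rises of DGD2 lie within it.

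MGD2 and MGD3 had very low FPKM in all 4 genotypes. MGD2 (AT5G20410, chromosome 5, 6896463 to 6898783) had 0.398 FPKM in gun1-1, 1.70 in gun4-1 and 0.49 in gun5-1, against 1.01, 1.09 and 0.994 in Col-0 of the same tables. The authors' deposited table lists it as untested in gun1-1 and gun5-1, and in gun4-1 as 0.65 (SE 0.55) with q = 0.217. MGD2 therefore shows no call in either direction, its values lying below Col-0 in gun1-1 and gun5-1 and above Col-0 in gun4-1. MGD3 (AT2G11810, chromosome 2, 4743162 to 4746813) summed over its 4 transcripts to 0.0402 FPKM in gun4-1 and 0.144 in gun5-1, against 0.157 and 0.144 in Col-0. In gun1-1 it is listed at 0, against 0.146 FPKM in Col-0, and it was untested in all 3 tables. MGD1 made up 99.3% of the summed FPKM of the 3 MGD genes in gun1-1, 95.8% in gun4-1 and 98.9% in gun5-1, and 96.4% in Col-0.

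The 250 bases before the annotated start of each of the 10 genes were read from the RefSeq assembly TAIR10.1. Both strands were searched for 4 short elements. The elements were P1BS (GNATATNC), the binding site of the phosphate-starvation factor PHR1, the G-box (CACGTG), the I-box core (GATAAG) and CCAATC, an element linked to the chloroplast factors GLK1 and GLK2. The 3 members with a match are shown 5′ to 3′ on the gene's own strand, with matches in capitals.
MGD1, chr4:15373738-15373987, + strand: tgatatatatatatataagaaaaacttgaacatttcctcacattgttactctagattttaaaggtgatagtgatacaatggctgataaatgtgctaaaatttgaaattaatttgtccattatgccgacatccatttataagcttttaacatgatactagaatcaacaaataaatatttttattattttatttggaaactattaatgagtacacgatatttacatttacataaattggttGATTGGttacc
MGD2, chr5:6896213-6896462, + strand: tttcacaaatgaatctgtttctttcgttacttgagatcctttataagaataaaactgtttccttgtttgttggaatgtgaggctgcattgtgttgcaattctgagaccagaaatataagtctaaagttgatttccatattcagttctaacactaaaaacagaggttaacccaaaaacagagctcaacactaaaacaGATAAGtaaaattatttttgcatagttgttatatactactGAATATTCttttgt
FAD6, chr4:15059847-15060096, - strand: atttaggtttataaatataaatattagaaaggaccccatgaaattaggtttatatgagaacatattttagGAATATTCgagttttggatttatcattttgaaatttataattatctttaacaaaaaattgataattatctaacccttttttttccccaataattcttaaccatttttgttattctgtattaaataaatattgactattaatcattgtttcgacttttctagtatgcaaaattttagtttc
MGD1 holds CCAATC once, read on the other strand as GATTGG 11 to 6 bases before its start. MGD2 holds GATAAG 54 to 49 bases and P1BS, as GAATATTC, 14 to 7 bases before its start. FAD6 holds P1BS in the same letters at -180 to -173 from its start. P1BS was thus present in 2 of 10 members, the I-box core in 1, CCAATC in 1 and the G-box in 0 of 10. Over 27443 windows of protein-coding nuclear genes of the same length, P1BS occurred in 5.46%, the G-box in 6.49%, the I-box core in 12.3% and CCAATC in 10.2%. These matches describe letters in a short window, and the windows of FAD7, FAD8, DGD1, DGD2, SQD1, SQD2 and MGD3 held none of the 4.

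**Figure D3:**
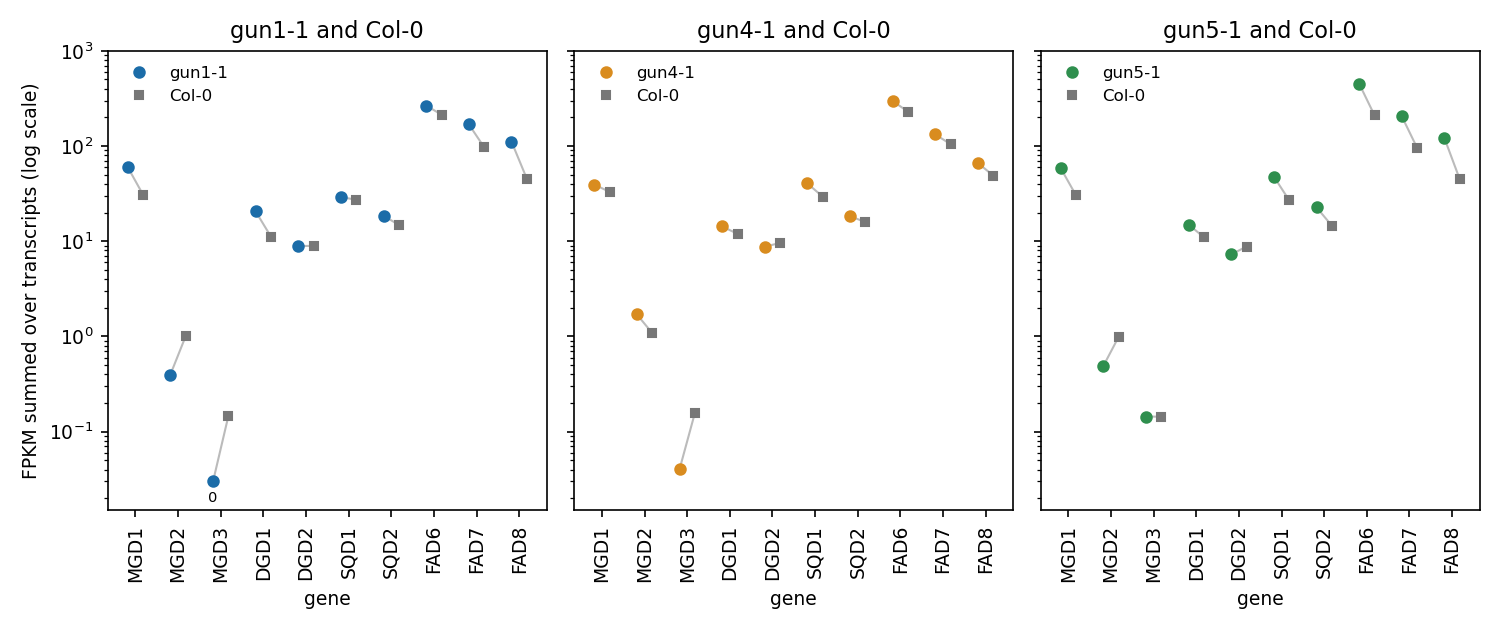
FPKM summed over each gene's transcripts (y axis, log scale) for the 10 members (x axis), each mutant as circles on the left and Col-0 of the same table as squares on the right; a value of 0 is drawn at the bottom and marked. The desaturase genes stand highest, FAD6 reaching 450.5 FPKM in gun5-1, and MGD2 and MGD3 stay below 2 FPKM.

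Both sulfolipid genes were called higher in gun5-1, and each in 1 further mutant. SQD1 (AT4G33030, chromosome 4, 15935373 to 15937833), the enzyme of the sugar nucleotide, had 29.0 FPKM in gun1-1, against 27.3 in Col-0. It had 40.4 FPKM in gun4-1, against 29.3 in Col-0, and 47.6 in gun5-1, against 26.8 in Col-0. SQD1 was thus close to Col-0 in gun1-1 and above it in both chelatase mutants. By the authors' deposited table its log2 fold change was 0.46 (SE 0.18) in gun4-1 and 0.83 (SE 0.18) in gun5-1, both at the floor of q, and 0.09 (SE 0.19) in gun1-1 with q = 0.587. SQD1 is the only member called in gun4-1 and gun5-1 by Cuffdiff and not in gun1-1, but the test of the difference between mutants did not pass for it. The gun4-1 call was lost when p was read from the statistic.

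SQD2 (AT5G01220, chromosome 5, 86543 to 90117), which completes the sulfolipid, had 18.6 FPKM in gun1-1, against 14.8 in Col-0. It had 18.3 FPKM in gun4-1, against 15.9 in Col-0, and 22.6 in gun5-1, against 14.5 in Col-0. Its FPKM stood at 1.25 times the Col-0 level in gun1-1, 1.15 times in gun4-1 and 1.56 times in gun5-1. The authors' deposited table gives SQD2 a log2 fold change of 0.64 (SE 0.20) at the floor of q in gun5-1, 0.33 (SE 0.20) with q = 0.0202 in gun1-1 and 0.20 (SE 0.20) with q = 0.322 in gun4-1. The gun1-1 call of SQD2 was lost at q under 0.01 and when p was read from the statistic.

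The plastid desaturases were the most abundant members, and FAD6, FAD7 and FAD8 were each called higher in all 3 mutants. FAD6 (AT4G30950, chromosome 4, 15056975 to 15059846), the desaturase that acts before FAD7 and FAD8, had 266 FPKM in gun1-1, against 213 in Col-0. It had 297 FPKM in gun4-1, against 229 in Col-0, and 450.5 in gun5-1, against 209.6 in Col-0. FAD6 thus stood at 1.25 times the Col-0 level in gun1-1, 1.30 times in gun4-1 and 2.15 times in gun5-1. The authors' deposited table gives FAD6 log2 fold changes of 1.10 (SE 0.17) in gun5-1 and 0.38 (SE 0.17) in gun4-1, both at the floor of q, and 0.32 (SE 0.16) with q = 0.00408 in gun1-1. The calls of FAD6 in gun1-1 and gun4-1 were lost when p was read from the statistic.

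FAD7 (AT3G11170, chromosome 3, 3499537 to 3502452), one of the desaturases that make trienoic fatty acids in plastids, had 169 FPKM in gun1-1, against 97.0 in Col-0. It had 132 FPKM in gun4-1, against 104 in Col-0, and 205 in gun5-1, against 95.4 in Col-0. FAD7 thus lay above Col-0 in all 3 mutants. By the authors' deposited table the log2 fold change of FAD7 was 1.10 (SE 0.17) in gun5-1 and 0.80 (SE 0.16) in gun1-1, both at the floor of q, and 0.35 (SE 0.17) with q = 0.00549 in gun4-1. The gun4-1 call was lost when p was read from the statistic.

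FAD8 (AT5G05580, chromosome 5, 1664040 to 1666531), the close relative of FAD7 known for its dependence on temperature, had 109 FPKM in gun1-1, against 44.9 in Col-0. It had 65.3 FPKM in gun4-1, against 48.2 in Col-0, and 119 in gun5-1, against 44.1 in Col-0. FAD8 thus rose by the largest factor of the 8 members tested in gun1-1 and in gun5-1, being 2.43 and 2.70 times its Col-0 level. The authors' deposited table gives FAD8 log2 fold changes of 1.43 (SE 0.18) in gun5-1, 1.28 (SE 0.18) in gun1-1 and 0.44 (SE 0.18) in gun4-1, all at the floor of q of their tables. In gun5-1 2.71% of all tested genes had a higher log2 fold change than FAD8, in gun1-1 4.52% and in gun4-1 12.4%. The gun4-1 call was lost when p was read from the statistic. A second FAD8 transcript had 2.21 FPKM in gun1-1, 1.07 in gun4-1 and 1.34 in gun5-1, against 0.491, 0.529 and 0.483 in Col-0, and was not called. FAD8 overlaps the gene AT5G05590 by 61 bases, and this neighbour had at most 4.06 FPKM in any mutant and was not called.

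Ratios between members within a genotype do not depend on the scaling of a table, and they are given without a test. DGD1 over DGD2 was 2.31 in gun1-1, 1.63 in gun4-1 and 2.06 in gun5-1, against 1.29 in Col-0. FAD7 over FAD8 was 1.55 in gun1-1, 2.03 in gun4-1 and 1.72 in gun5-1, against 2.16 in Col-0. These ratios use the main transcript of each gene. With FPKM summed over transcripts, FAD8 took a larger share of the FAD7 and FAD8 pair in each mutant. The share was 39.8% in gun1-1, 33.4% in gun4-1 and 37.1% in gun5-1, against 31.9% in Col-0. FAD6 over FAD8 was 2.44 in gun1-1, 4.55 in gun4-1 and 3.78 in gun5-1, against 4.75 in Col-0. The ratio of SQD1 to SQD2 was 1.57 in gun1-1, 2.21 in gun4-1 and 2.10 in gun5-1, against 1.84 in Col-0, so it lay below Col-0 in gun1-1 and above it in both other mutants. MGD1 and SQD1 had nearly equal FPKM in Col-0, at a ratio of 1.07, and the ratio was 1.98 in gun1-1, 0.906 in gun4-1 and 1.16 in gun5-1.

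**Figure D4:**
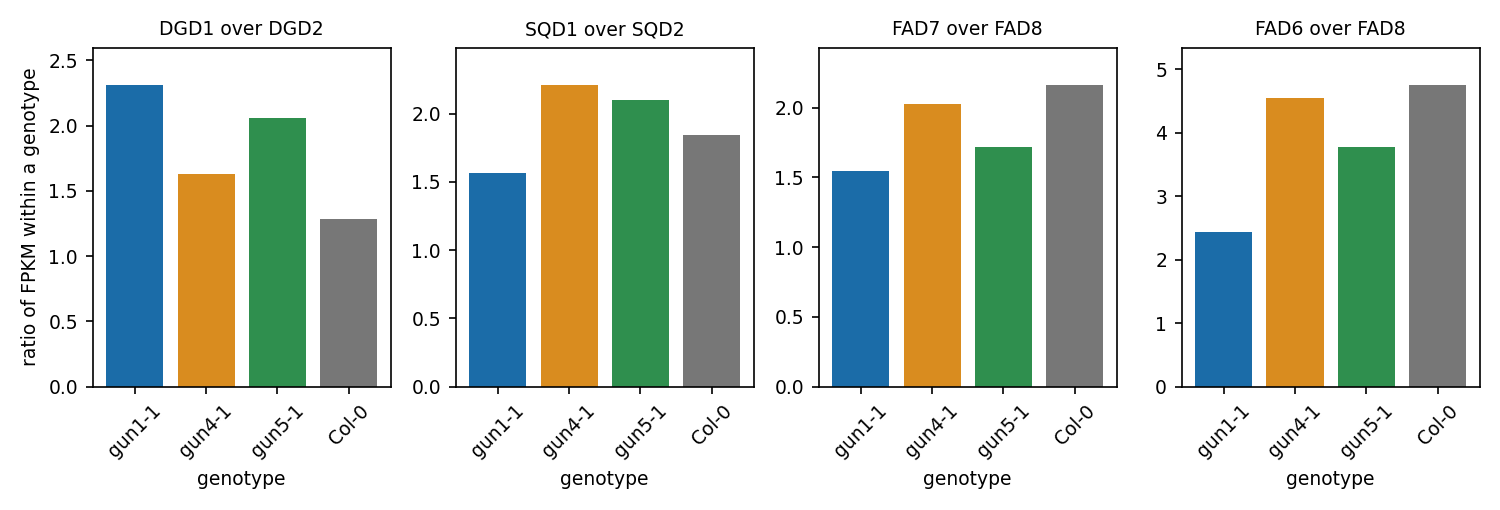
Ratio of the FPKM of paired members within a genotype (y axis, linear from 0) in gun1-1, gun4-1, gun5-1 and Col-0 (x axis), Col-0 being that of the gun1-1 table. DGD1 over DGD2 is higher in each mutant than its Col-0 value of 1.29, and FAD6 over FAD8 is lowest in gun1-1, at 2.44.

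The order of levels in Col-0, per length, was FAD6, FAD7, FAD8, MGD1, SQD1, SQD2, DGD1, DGD2, MGD2 and MGD3, and no spread is given that would separate neighbours such as MGD1 (29.1 FPKM in the gun1-1 table) and SQD1 (27.3 FPKM). In gun1-1 DGD1, at 20.5 FPKM, stood above SQD2, at 18.6. In gun4-1 SQD1, at 40.4 FPKM, stood above MGD1, at 36.6.

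To ask whether the mutants differ from each other, the difference of 2 deposited log2 fold changes was divided by its combined SE, and the normal p was adjusted over all genes tested in both tables. The mutants share Col-0, so the SE is approximate, and without values per library no exact test could be made. The Col-0 error enters both fold changes alike, so leaving out this sharing makes the combined SE too large. A member that missed the threshold is therefore not shown to be equal in the mutants. Of 8 members tested in each pair, 1 passed in each: FAD8 in both pairs with gun4-1, and FAD6 in gun1-1 against gun5-1. Over all genes, 6.19% were called between gun1-1 and gun4-1 (3.81% higher and 2.38% lower in gun1-1), 1.71% between gun1-1 and gun5-1 and 2.79% between gun5-1 and gun4-1. FAD8 was higher in gun5-1 than in gun4-1 by 0.996 (SE 0.26) on the log2 scale, computed from the authors' deposited values with adjusted p = 0.00649, where 2.07% of genes were called higher in gun5-1. FAD8 was also higher in gun1-1 than in gun4-1, by 0.84 (SE 0.26), computed from the authors' deposited values with adjusted p = 0.0195. FAD6 was lower in gun1-1 than in gun5-1, with a difference of -0.78 (SE 0.23), computed from the authors' deposited values with adjusted p = 0.0499, where 0.852% of genes were called lower in gun1-1. The FAD6 call was lost when the fold changes were centred on their medians. All 3 calls were lost when SE were taken from the deposited p alone, which is bounded by the smallest p listed. That setting called 18.4% of all genes between gun1-1 and gun4-1, 5.95% between gun1-1 and gun5-1 and 7.22% between gun5-1 and gun4-1.

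Other members missed this threshold. FAD7 in gun5-1 exceeded gun4-1 by 0.75 (95% interval 0.29 to 1.22), computed from the authors' deposited values with adjusted p = 0.0531. For FAD6 the same difference was 0.73 (95% interval 0.26 to 1.20), computed from the authors' deposited values with adjusted p = 0.0729. MGD1 exceeded gun4-1 by 0.76 in gun1-1 (95% interval 0.17 to 1.34) and by 0.72 in gun5-1 (95% interval 0.14 to 1.31), computed from the authors' deposited values with adjusted p = 0.129 and 0.275. SQD1 in gun1-1 against gun5-1 gave -0.74 (95% interval -1.25 to -0.22), computed from the authors' deposited values with adjusted p = 0.18. DGD1 exceeded gun4-1 by 0.63 in gun1-1 (95% interval 0.09 to 1.17), computed from the authors' deposited values with adjusted p = 0.214. In gun5-1 DGD1 exceeded gun4-1 by 0.20 (95% interval -0.36 to 0.75). For MGD1 the difference of gun1-1 and gun5-1 was 0.03 (95% interval -0.53 to 0.60), and for DGD1 it was 0.43 (95% interval -0.11 to 0.97).

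The patterns nearest to 2 of the members over the 3 mutants were sought among 12192 other genes with at least 5 FPKM in every group, by the distance between the 3 log2 fold changes. FAD8 had the highest median of them, and the nearest genes were APE1 (AT5G38660) at a distance of 0.06, PDE334 (AT4G32260) at 0.073 and NdhM (AT4G37925) at 0.093. APE1 had 1.24 in gun1-1, 0.42 in gun4-1 and 1.39 in gun5-1 by the authors' deposited table. DGD2 had the lowest median, and the nearest genes were LOS2 (AT2G36530) at 0.016, AT2G23780 at 0.019 and CKL6 (AT4G28540) at 0.021. These distances rest on 3 fold changes that share the Col-0 libraries.

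Genes around the pathway were described from lists chosen by known role, and their counts are to be read beside the 18.7%, 8.21% and 16.4% of all tested genes called higher in gun1-1, gun4-1 and gun5-1. Whether calls of listed genes hold when p is read from the statistic was not examined. Of 5 other desaturases, 5 were called higher in gun1-1, 2 in gun4-1 and 4 in gun5-1 by the authors' deposited table. FAD4, which desaturates plastid phosphatidylglycerol, rose by 1.07 (SE 0.25) in gun1-1 and 0.92 (SE 0.26) in gun5-1, and FAD5, which acts on monogalactosyldiacylglycerol, by 0.70 (SE 0.16) and 1.09 (SE 0.17) by the authors' deposited table. FAD2, the desaturase of the endoplasmic reticulum that corresponds to FAD6, rose by 0.61 (SE 0.16) in gun1-1, 0.48 (SE 0.17) in gun4-1 and 0.87 (SE 0.17) in gun5-1 by the authors' deposited table. FAD2, which acts outside the plastid, was thus called higher in all 3 mutants. The list median was 0.61 in gun1-1, 0.31 in gun4-1 and 0.87 in gun5-1.

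Genes of precursor supply and lipid import were called in part. Of 11 tested genes, 5 were called higher in gun1-1, 2 in gun4-1 and 5 in gun5-1 by the authors' deposited table, beside 18.7%, 8.21% and 16.4% of all tested genes, with list medians of 0.30, 0.05 and 0.45. ATS1, the acyltransferase that starts glycerolipid assembly in plastids, rose by 1.09 (SE 0.23) in gun1-1, 0.53 (SE 0.23) in gun4-1 and 1.23 (SE 0.22) in gun5-1 by the authors' deposited table. SFR2, which transfers galactose between galactolipids, rose by 1.79 (SE 0.42) in gun1-1 and 1.07 (SE 0.42) in gun5-1 by the authors' deposited table. TGD2, a part of the lipid importer, rose by 0.36 (SE 0.22) in gun1-1, 0.48 (SE 0.22) in gun4-1 and 0.69 (SE 0.22) in gun5-1 by the authors' deposited table. Of 3 tested genes of plastid phosphatidylglycerol synthesis, AT3G58830 and CDS5 were called higher in gun1-1 and gun5-1, and 0 in gun4-1.

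For the sugar nucleotides, 3 of 8 genes were called higher and 1 lower in gun1-1, 1 and 0 in gun4-1, and 2 and 1 in gun5-1 by the authors' deposited table. Of all tested genes, 18.7%, 8.21% and 16.4% were called higher and 15%, 5.92% and 13.1% lower in gun1-1, gun4-1 and gun5-1. The list medians were 0.05, -0.02 and 0.02, beside -0.02, -0.003 and -0.02 over all tested genes. UGP2, a UDP-glucose pyrophosphorylase, had 102 FPKM in gun1-1, against 16.6 in Col-0, and 46.2 in gun5-1, against 16.3 in Col-0. It rose by 2.61 (SE 0.21) in gun1-1, 0.37 (SE 0.23, q = 0.042) in gun4-1 and 1.499 (SE 0.21) in gun5-1 by the authors' deposited table. UGP3, the plastid enzyme that feeds SQD1, rose by 0.86 (SE 0.18) in gun1-1 and 0.85 (SE 0.18) in gun5-1 by the authors' deposited table. In gun1-1 UGP3 was therefore called higher while SQD1 was not. UGE4, a UDP-glucose epimerase, fell by 0.50 (SE 0.24, q = 0.00382) in gun1-1 and by 0.38 (SE 0.25, q = 0.0353) in gun5-1 by the authors' deposited table.

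Genes of thylakoid membrane formation were called higher in 7 of 8 cases in gun1-1, 4 in gun4-1 and 7 in gun5-1, where CURT1D was called lower, by the authors' deposited table, beside 18.7%, 8.21% and 16.4% of all tested genes called higher. The list median was 1.07 in gun1-1, 0.31 in gun4-1 and 1.03 in gun5-1. CURT1B, a protein of thylakoid curvature, rose by 2.97 (SE 0.29) in gun1-1 and 2.19 (SE 0.31) in gun5-1 by the authors' deposited table. VIPP1, a protein needed for thylakoids to form, rose by 1.09 (SE 0.17) in gun1-1, 0.29 (SE 0.17) in gun4-1 and 1.11 (SE 0.17) in gun5-1 by the authors' deposited table.

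Of 19 genes known for phosphate shortage and phospholipid breakdown, the setting of MGD2, MGD3 and DGD2, 13 were tested. The untested ones had at most 0.719 FPKM in any group. Of the 13 tested genes, 1 was called higher and 3 lower in gun1-1, 0 and 1 in gun4-1, and 0 and 3 in gun5-1 by the authors' deposited table. Of all tested genes, 15%, 5.92% and 13.1% were called lower in gun1-1, gun4-1 and gun5-1, and 33.7%, 14.1% and 29.5% in either direction. RNS1, a ribonuclease, had 6.19 FPKM in gun1-1, 9.18 in gun4-1 and 5.60 in gun5-1, against 17.8, 19.2 and 17.5 in Col-0. The log2 fold change of RNS1 was -1.53 (SE 0.31) in gun1-1, -1.06 (SE 0.28) in gun4-1 and -1.65 (SE 0.33) in gun5-1 by the authors' deposited table. PHT1;4, a phosphate transporter, fell by 0.86 (SE 0.44) in gun1-1 and by 1.02 (SE 0.48) in gun5-1 by the authors' deposited table. Its level was low, at 1.52 FPKM in gun1-1 and 1.34 in gun5-1, against 2.76 and 2.72 in Col-0. PHR1 itself rose by 0.80 (SE 0.23) in gun1-1 and gave -0.04 in gun4-1 and 0.17 in gun5-1, which were not calls, by the authors' deposited table.

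**Figure D5:**
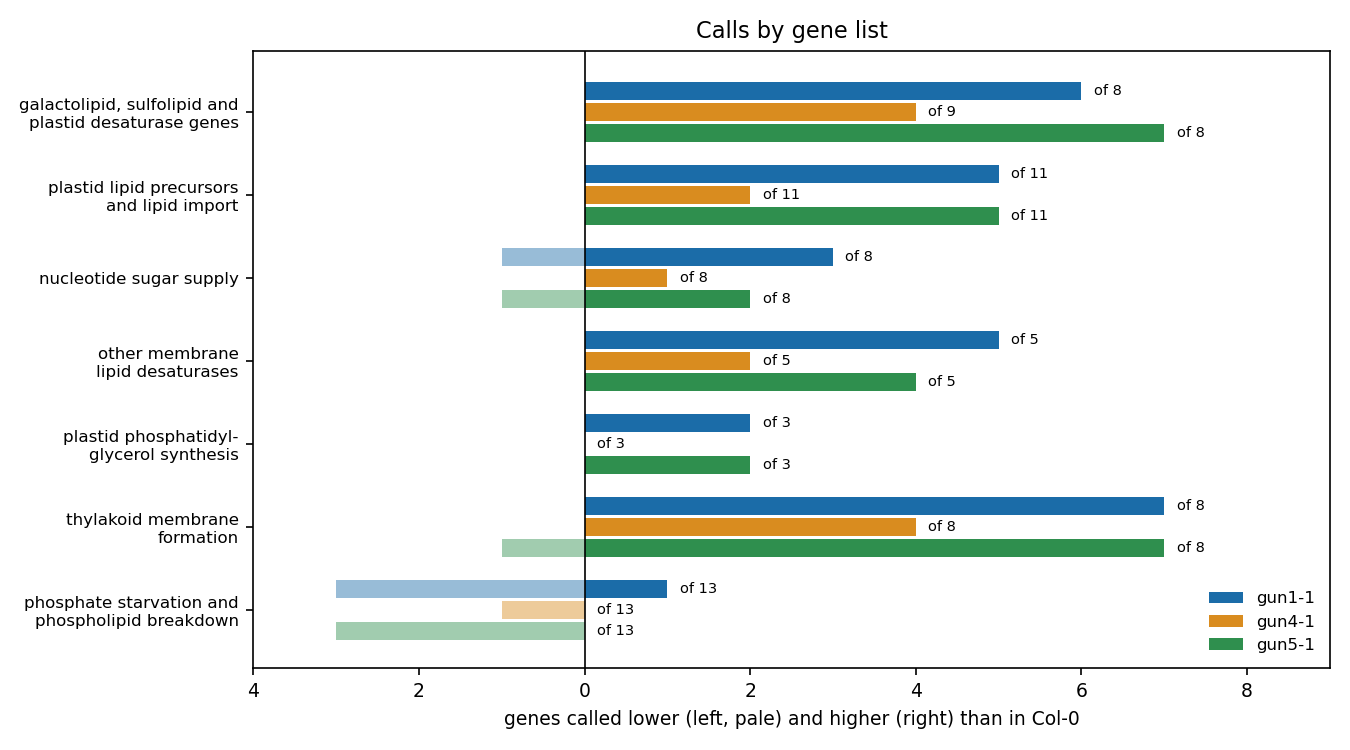
Number of genes called higher (bars to the right) and lower (pale bars to the left) than in Col-0 (x axis) for the 10 members and 6 lists of related genes (y axis), with the number tested beside each bar. The members have 6 of 8, 4 of 9 and 7 of 8 called higher in gun1-1, gun4-1 and gun5-1, and the phosphate list has 1, 0 and 0 of 13.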

How the data were processed

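RNA sequencing of whole seedlings was deposited as 3 tables, each with 64480 transcripts and 1 mutant against Col-0. Per the submitters' processing notes, Trimmomatic, TopHat, Cufflinks and Cuffdiff were used; the sources used here give no versions, build or annotation. The deposited values are FPKM per group, made by the authors from 3 libraries, the deposited log2 fold change of mutant over Col-0, the deposited test statistic (a signed score) and the deposited p-value and q-value. The design text calls the 3 samples of a genotype biological replicates. RNA was selected with oligo(dT), and no strand marking is stated, so reads of overlapping genes cannot be told apart by strand. Python 3.11.15 with pandas 2.3.3, numpy 2.4.6, scipy 1.17.1 and matplotlib 3.10.9 was used for what follows. The SE is the fold change over the statistic, or over the normal quantile of p where that was larger and p was above 5e-05. Differences between mutants were tested by a two-sided normal test with Benjamini-Hochberg adjustment, treating the 2 tables as independent although they share Col-0. A check on simulated data drew the 2 fold changes independently, with p taken from the statistic. It therefore says nothing about the shared Col-0 or about the disagreement of p and statistic. Relative to the gun1-1 table, Col-0 FPKM was a median 1.07 times as high in that of gun4-1 and 0.984 times in that of gun5-1, so levels across tables are not tested. Starts and ends equalled those of RefSeq TAIR10.1 for 25705 of 25712 genes alone in their span; all 10 member names matched that annotation. Named genes are all members, the mutated genes and the 3 nearest patterns of 2 members. From each list, genes were named from the 3 called ones with the largest change per comparison, and not all of these are named. CURT1D and the neighbours that overlap members are named outside this rule. Members and lists were chosen with earlier results of these data known.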

Additional observations from a re-analysis of the deposited data

Results flagged for a closer look

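The test of the difference of log2 fold changes between mutants passed for members in 3 cases. FAD8 in gun1-1 minus gun4-1 was 0.84, FAD8 in gun5-1 minus gun4-1 was 0.996, and FAD6 in gun1-1 minus gun5-1 was -0.78. Of all genes, 6.19% were called between gun1-1 and gun4-1, 2.79% between gun5-1 and gun4-1 and 1.71% between gun1-1 and gun5-1. All 3 calls were lost with SE from the deposited p alone, although that setting called more of all genes in each pair. The call of FAD6, whose adjusted p over all genes lay just under 0.05, was also lost with centring. FAD8 had 109 FPKM in gun1-1 and 119 in gun5-1, against 65.3 in gun4-1, each from a separately scaled table. FAD6 had 266 FPKM in gun1-1, against 450.5 in gun5-1.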

How the results depend on the processing

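No paired analysis was possible because the tables hold no values per library, and for the same reason no library could be left out; depth limits are unknown. All 75 recomputed log2 fold changes of the tested members (with 1 added to FPKM, summed over transcripts, or centred on the median) moved by less than 1 SE. For the 25 centred values this was fixed in advance. The medians subtracted were -0.023, -0.003 and -0.018 in gun1-1, gun4-1 and gun5-1, and the smallest SE was 0.16. Summing could not move members with 1 transcript, such as SQD1, FAD6 and FAD7. The counts of called members kept within 1.5 times under 6 of 6 alternatives in gun1-1 and gun5-1, and under 5 of 6 in gun4-1. Of these, the minimum of 1 FPKM removed no tested gene and centring left the deposited q as it was, so neither says anything about stability. With the first tested transcript standing for a gene, MGD1 and FAD8 were lost in gun1-1 and gun5-1, where minor transcripts then represent them. With p read from the statistic, an alternative chosen after seeing the data, 0 members were called in gun4-1. Between mutants, centring gave 0 for gun1-1 against gun5-1 and 2 for gun5-1 against gun4-1, FAD7 being added; SE from p alone gave 0 for gun5-1 against gun4-1. At an unadjusted p under 0.05, 2 members passed in that first case and 5 in the last. The share of all genes passing that threshold was not computed. SE from p alone exchanged FAD8 for MGD1 in gun1-1 against gun4-1 and FAD6 for SQD1 in gun1-1 against gun5-1. Where p is at the smallest listed value, this SE is set by that bound and can be larger or smaller than the SE used. Over all genes it called 18.4% between gun1-1 and gun4-1, 5.95% between gun1-1 and gun5-1 and 7.22% between gun5-1 and gun4-1. The cause of these changes was not tested.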
